A study of Mus musculus with 8 samples.

Results

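The genes described here code for collagens, laminins, fibrillins, fibulins and integrins, in the lungs of Fra-2 transgenic mice. They are all named genes whose symbol starts with Col, Fbn or Fbln and a digit, with Lama, Lamb or Lamc and a digit, or with Itga or Itgb. The rule found 51 of 8741 named genes on the array, 34 matrix genes, 14 integrin subunits and 3 genes that carry an integrin name without being a subunit. They are covered by 82 probes, and 50 of the 51 could be tested.

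The measurements are 8 two-colour arrays. The transgenic RNA came from the lungs of 4 males carrying a fra-2 transgene (Fosl-2 gene, coding for an AP-1 transcription factor), aged 14 weeks and of C57BL6 x CBA background. The other channel held 1 pool of RNA from the lungs of 4 wild-type males of the same age and background. The dyes were swapped between the 2 arrays of each transgenic mouse, so that its RNA carried Cy5 once and Cy3 once. The promoter that drives the transgene is not given in the sources used here, and no probe named Fosl2 was among the named probes, so the transgene itself was not checked. The pool counts as 1 control sample, so a test of the ratio against 0 leaves out the spread among wild-type mice. Arrays of 6- and 10-week-old mice are not analysed here.

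All values are log2 ratios, transgenic over pool, each the mean of the 2 arrays of a mouse. That direction is likely only, since the labels give the channels but not how the ratio was formed, and higher and lower would exchange throughout if it ran the other way. A ratio holds no level, so neither levels of different genes nor the presence of lung markers can be read from it. In bulk lung tissue, fewer cells of a type and less RNA per cell cannot be told apart. The arrays gave 20585 to 20729 usable values each, and the 2 arrays of a mouse correlated at 0.587 to 0.685 in mice 1 to 3 and at 0.389 in mouse 4, whose Cy3 array had the widest spread (SD 0.768, against 0.413 to 0.457 on the other 7 arrays).

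The extracellular matrix is built from these families. Fibrillar collagens form the tensile cables of the lung interstitium. Collagen IV and laminins form the basement membranes under epithelium and endothelium, while fibrillins and fibulins belong to elastic fibres and their microfibrils. Integrins are receptors of paired alpha and beta chains that bind these proteins from the cell surface, or, on leukocytes, bind counter-receptors on other cells.

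The first comparison asked which of these genes differed between transgenic lung and the wild-type pool. Of the integrin subunits, Itgb2, Itga7, Itga3 and Itgb4 were higher and Itgb1 was lower, and these 5 of 13 tested subunits kept their calls under all 16 alternative settings tried. Among the 34 matrix genes, 6 were lower (Col13a1, Lama4, Fbln5, Lamb2, Col23a1 and Col27a1) and 1 was higher (Fbln7). Of these 7, only the call of Col13a1 held under all 16 settings. Itgb2, Itga7, Itga3, Itgb4, Col13a1, Lama4, Fbln5, Lamb2 and Fbln7 each rest on 1 probe, with no second probe to compare. Calls were made with limma on the 4 mouse means at an adjusted p under 0.05, Benjamini-Hochberg over 8692 genes.

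Over all named genes 31.9% were called, 13.5% higher and 18.4% lower. The share was 20.6% among the matrix genes and 38.5% among the integrin subunits. The median log2 ratio was -0.04 over the 34 matrix genes and 0.16 over the 13 integrin subunits, beside -0.01 over all 8692 genes. No list-level test was made, so neither family is set apart from other genes by these counts. A called gene is one whose mean differed from 0 by more than the spread between the 4 mice allows.

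**Figure D1:**
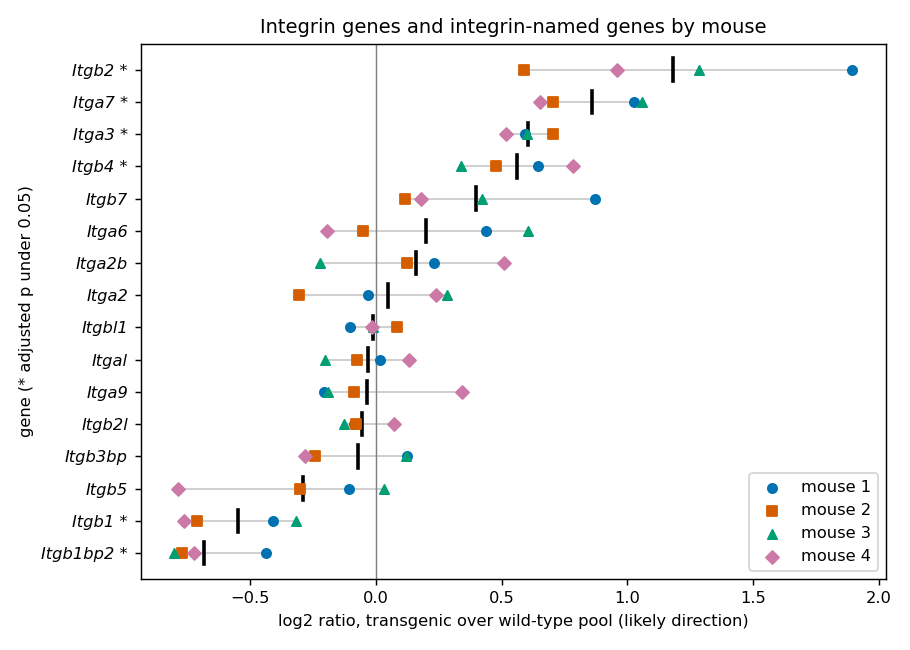
Log2 ratios of the 13 tested integrin subunits and 3 integrin-named genes (rows), 1 symbol per mouse; the black bar is the mean of the 4 mice, the grey line their range, and an asterisk marks an adjusted p under 0.05. The 4 mice lie on one side of 0 for Itgb2, Itga7, Itga3, Itgb4, Itgb1 and Itgb1bp2, while Itgb5 and Itga6 cross it.

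Itgb2 encodes the beta 2 chain (CD18), the common chain of the leukocyte integrins. It stood at 1.89, 0.59, 1.28 and 0.96 in mice 1 to 4, so all 4 mice were above 0 and mouse 1 was more than 1 log2 unit above mouse 2. The mean was 1.18 ± 0.55 (SD, n = 4 mice), 2.27-fold higher in transgenic lung (limma, adjusted p = 0.0051). Of 7 measured macrophage markers, 5 were higher and 0 lower, among them C1qa (1.89 ± 0.75), Mrc1 (1.24 ± 0.27) and Ctss (1.22 ± 0.51), and their median was 1.55, 0.69, 1.31 and 0.80 in mice 1 to 4. The mice stood in the order of Itgb2 in 4 of the 7 markers. In C1qb (0.64 ± 0.13), also higher, mouse 2 was highest and mouse 3 lowest, and Fcgr1 and Lyz2 did not pass. The part of macrophage number in the Itgb2 ratio was not tested.

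The alpha partners of Itgb2 were hardly covered: Itgal, the alpha L chain of LFA-1, was the only one named. Its mean was -0.03 ± 0.14 (adjusted p = 0.793), and its probes disagreed, with 1 lower at -0.41 (adjusted p = 0.0433 over all probes) and the other at 0.34, not past the threshold. Itgb7, the beta chain of lymphocyte homing integrins, stood at 0.87, 0.12, 0.42 and 0.18 in mice 1 to 4, all above 0 (mean 0.40 ± 0.34, adjusted p = 0.0523). It passed on single arrays with the mouse as a random block (limma, adjusted p = 0.0117, or 0.0197 with a dye term), which made 5 subunits higher, and on centred arrays (0.0473). The random block took 1 correlation for all genes, 0.114, or 0.357 with a dye term. It thus counted the 2 arrays of a mouse as largely independent, although they are technical repeats. For genes whose arrays agree within a mouse its p-values can be too small, here and below. T and NK cell markers, of which 3 were higher (Cd2, 0.70 ± 0.22; Cd3g, 0.53 ± 0.20; Cd247, 0.36 ± 0.13) and 1 lower (Gzma, -1.09 ± 0.92) of 7 measured, had medians of 0.97, 0.16, 0.45 and 0.05 in the same mice. B and plasma cell markers were higher in 4 of 5 and lower in 0, led by Blnk (1.03 ± 0.21), Cd22 (0.996 ± 0.24) and Ms4a1 (0.65 ± 0.19). The part of lymphocyte number in the Itgb7 ratio was not tested. Itga2b, the platelet alpha chain, had a mean of 0.16 ± 0.30 (adjusted p = 0.326), beside 1 higher (Gp9, 0.43 ± 0.35) and 0 lower of 4 platelet markers. Itgb2l, a beta 2-like chain of mouse neutrophils, had a mean of -0.05 ± 0.09 (adjusted p = 0.591), while 3 of 7 neutrophil markers were higher (Ngp, 0.91 ± 0.26; Ltf, 0.88 ± 0.62) and 2 lower (S100a8, -1.09 ± 0.66). Of 4 dendritic cell markers, Ccr7 was higher (0.38 ± 0.20) and Clec9a lower (-0.56 ± 0.27).

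Itgb1 encodes the beta 1 chain, which pairs with most matrix-binding alpha chains. Over its 6 probes it stood at -0.41, -0.71, -0.32 and -0.76 in mice 1 to 4, below 0 in each, with a mean of -0.55 ± 0.22 (limma, adjusted p = 0.00718). The probes split 5 to 1. Tested singly, 5 were lower, with means between -0.96 and -0.51 and adjusted p between 0.00467 and 0.0197 over all probes. The other probe had a mean of 0.30 ± 0.30 (adjusted p = 0.108). That probe has an annotation number between 8000 and 9000, the stretch in which probes of the same gene agreed least (Spearman correlation 0.112, against 0.172 to 0.362 in the other stretches). Without names from that stretch, the mean of Itgb1 was -0.72 (adjusted p = 0.00612).

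Genes of 2 laminin-binding alpha chains that pair with beta 1 were higher. Itga7 encodes the alpha 7 chain, a laminin receptor chain best known from muscle. It stood at 1.03, 0.70, 1.06 and 0.65 in mice 1 to 4, a mean of 0.86 ± 0.21 (adjusted p = 0.00167). Itga3, the alpha 3 chain of epithelial laminin receptors, stood at 0.60, 0.71, 0.60 and 0.52, the narrowest range among the called subunits (mean 0.61 ± 0.08, adjusted p = 0.00206). Both genes were above 0 in 4 of 4 mice while Itgb1 was below 0 in the same 4, and each rests on 1 probe. Markers of heart and skeletal muscle fell in 10 of 11 and rose in 0, led by Mb (-1.81 ± 0.60), Ckmt2 (-1.40 ± 0.40) and Myh7 (-1.16 ± 0.44). Of 6 smooth muscle markers, 1 was higher (Myocd, 0.72 ± 0.08) and 3 were lower. The part of muscle in the Itga7 ratio was not tested.

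Itgb4 encodes the beta 4 chain, which pairs with alpha 6 in the hemidesmosomes of epithelial cells. It stood at 0.64, 0.48, 0.34 and 0.78 in mice 1 to 4, a mean of 0.56 ± 0.19 (adjusted p = 0.00536). Its partner Itga6 stood at 0.44, -0.05, 0.61 and -0.19, so the mice lay on both sides of 0 and the mean of 0.20 ± 0.38 did not pass (adjusted p = 0.301). The arrays of mouse 4 disagreed on Itga6, at 0.17 (Cy5) and -0.56 (Cy3, the array with the widest spread). Mouse 2 was slightly below 0 on both arrays (-0.04 and -0.06). Airway epithelial markers included basal cell keratins that were higher, Krt5 (0.86 ± 0.46) and Krt15 (0.80 ± 0.74), while Bpifa1 was lower (-0.71 ± 0.42) of 6 measured. Of 5 type 1 alveolar epithelial markers 4 were lower, led by Emp2 (-0.98 ± 0.26), Ager (-0.78 ± 0.23) and Aqp5 (-0.55 ± 0.24). Of 5 type 2 markers Sftpb was higher (0.37 ± 0.19) and 0 were lower. The part of epithelial makeup in the Itgb4 ratio was not tested.

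The other subunits did not pass. Itgb5, the beta chain of a vitronectin receptor, stood at -0.10, -0.30, 0.03 and -0.78 in mice 1 to 4 (mean -0.29 ± 0.36, adjusted p = 0.135), and its 3 probes agreed, with means between -0.33 and -0.22. Itga2, a collagen receptor chain, and Itga9 had means of 0.05 and -0.03. Itga11, a fibroblast collagen receptor chain, had no value in mouse 1 and was not tested. Of the integrin-named genes that are no subunits, Itgb1bp2 encodes melusin, a muscle protein that binds the beta 1 tail. It stood at -0.44, -0.77, -0.80 and -0.72, a mean of -0.68 ± 0.17 (adjusted p = 0.00246), and both of its probes were lower. The heart and skeletal muscle markers, with medians of -0.74, -0.88, -1.12 and -0.52 in mice 1 to 4, were below 0 beside it. How far muscle content enters the Itgb1bp2 ratio was not tested. Itgb3bp, a centromere protein gene, and Itgbl1, the gene of a secreted protein with integrin-like repeats, had means of -0.07 and -0.01.

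**Figure D2:**
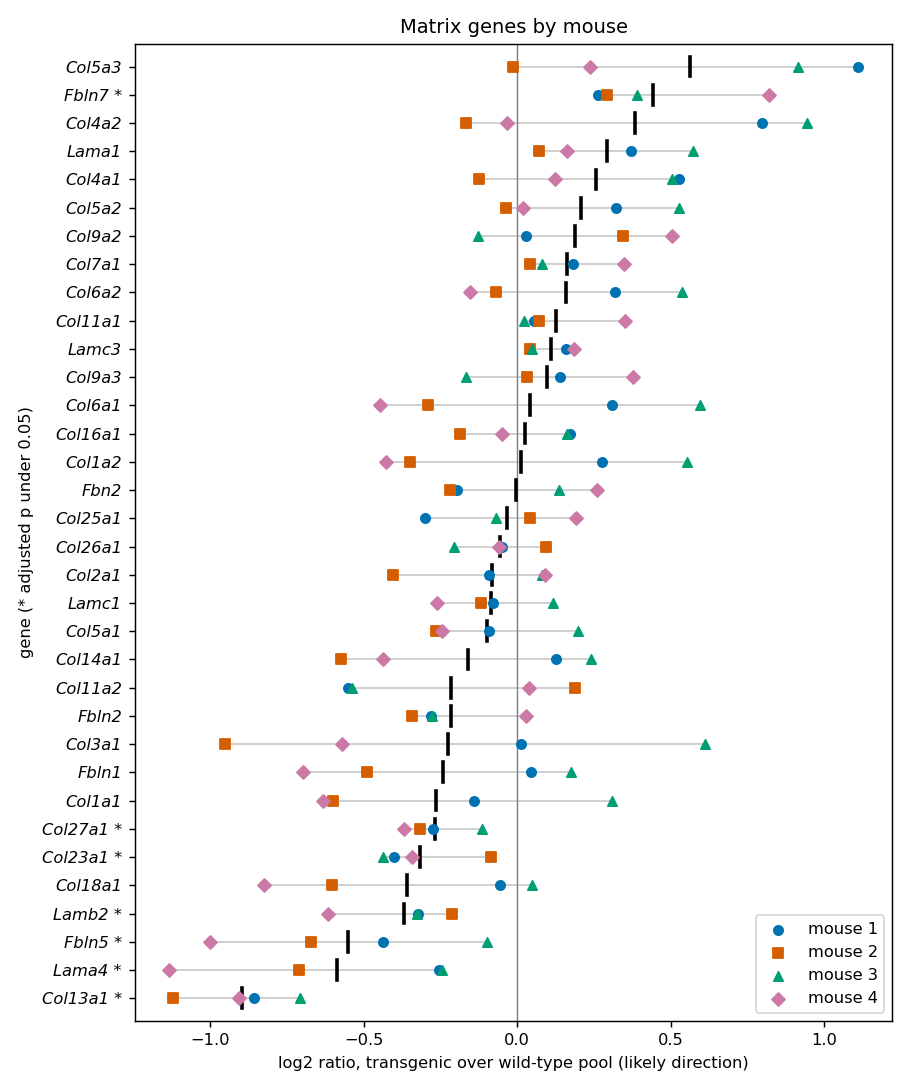
Log2 ratios of the 34 matrix genes (rows), 1 symbol per mouse; the black bar is the mean of the 4 mice, the grey line their range, and an asterisk marks an adjusted p under 0.05. Mouse 3 and mouse 1 lie to the right of mouse 2 and mouse 4 in 20 of the 34 genes, Col1a1, Col1a2, Col3a1, Col4a2, Col6a1 and Col14a1 among them, while Col13a1 lies below -0.70 in each mouse.

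Among the matrix genes, Col13a1 was the lowest. It encodes a collagen that spans the cell membrane and is found at adhesion sites. It stood at -0.86, -1.12, -0.71 and -0.91 in mice 1 to 4, all well below 0, with a mean of -0.90 ± 0.17 (limma, adjusted p = 0.00119). A second membrane-spanning collagen, Col23a1, was lower at -0.40, -0.08, -0.44 and -0.34 (mean -0.32 ± 0.16, adjusted p = 0.0282). Its call was lost without mouse 1 (adjusted p = 0.11), mouse 3 (0.1) or mouse 4 (0.0703), and on Cy5 arrays alone, where the mean was -0.21 (0.125). Of the 2 probes of Col23a1, 1 was lower alone (-0.43, limma, adjusted p = 0.0201 over all probes). The other did not pass (-0.20, 0.145). Col25a1, also membrane-spanning, had a mean of -0.03 ± 0.21. Col27a1, a fibrillar collagen known from cartilage, stood at -0.27, -0.32, -0.11 and -0.37 (mean -0.27 ± 0.11, adjusted p = 0.0344) and lost its call without mouse 1 (adjusted p = 0.113), mouse 2 (0.117) or mouse 4 (0.0781), without the Cy3 array of mouse 4 (0.0525), and on Cy5 arrays alone, where the mean was -0.15 (0.137). Here too 1 of 2 probes was lower alone (-0.33, limma, adjusted p = 0.0247 over all probes) and the other did not pass (-0.20, 0.136). Cartilage markers did not run one way: Sox9 (0.44 ± 0.20) and Cnmd (0.37 ± 0.30) were higher and Comp was lower (-0.31 ± 0.17) of 5 measured.

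Laminin chains moved unevenly. Lama4, the alpha 4 chain of vascular and muscle basement membranes, stood at -0.25, -0.71, -0.25 and -1.13 in mice 1 to 4, below 0 in each but over a wide range (mean -0.59 ± 0.43, adjusted p = 0.0252). The call was lost without mouse 2 (adjusted p = 0.0872) or mouse 4 (0.0575). Lamb2, the beta 2 chain, stood at -0.32, -0.21, -0.33 and -0.62 (mean -0.37 ± 0.17, adjusted p = 0.0185) and lost its call without mouse 1 (adjusted p = 0.06) or on Cy5 arrays alone (0.0766). The gamma 1 chain gene Lamc1, the usual partner of both, had a mean of -0.08 ± 0.16 (adjusted p = 0.467), with probe means from -0.35 to 0.24. Lama1, the alpha 1 chain, was above 0 in 4 of 4 mice at 0.37, 0.07, 0.57 and 0.16 (mean 0.29 ± 0.22, adjusted p = 0.0578), and passed under 5 alternatives: centred arrays (adjusted p = 0.0482), the mouse as a random block (0.0233, or 0.0280 with a dye term), Cy5 arrays alone (0.0379) and without the Cy3 array of mouse 4 (0.0363). Lamc3 had a mean of 0.11 ± 0.07 (adjusted p = 0.273). Of 7 endothelial markers 1 was lower (Eng, -0.61 ± 0.29) and 0 higher, and their medians of 0.03, -0.29, 0.17 and -0.48 in mice 1 to 4 were lowest in the same mice as Lama4. That order is common: mice 1 and 3 were the 2 highest in 30.9% of all named genes. Medians of fibroblast markers were lowest in mice 2 and 4 too. The part of endothelial cell number in the Lama4 ratio was not tested.

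Of the elastic fibre families, Fbln5, which encodes a fibulin needed to assemble elastin, stood at -0.44, -0.67, -0.10 and -1.0005 in mice 1 to 4 (mean -0.55 ± 0.38, adjusted p = 0.0229). All 4 mice were below 0, and the call was lost without mouse 1 (adjusted p = 0.0563), mouse 2 (0.0823) or mouse 4 (0.0655). It was also lost on Cy3 arrays alone, where the mean was -0.34 (adjusted p = 0.144). Fbln7, a cell adhesion fibulin, was the only matrix gene called higher, at 0.26, 0.29, 0.39 and 0.82 (mean 0.44 ± 0.26, adjusted p = 0.02). Its call was lost when only Cy5 arrays of the mice were used, where the mean was 0.21 (adjusted p = 0.0701). Fbln1 had a mean of -0.24 ± 0.42 (adjusted p = 0.249) and Fbln2 of -0.22 ± 0.17 (adjusted p = 0.094), which passed without mouse 4 (adjusted p = 0.0334), without its Cy3 array (0.0119) and on Cy5 arrays alone (0.00699). On Cy3 arrays alone Fbln2 showed no fall, with a mean of -0.001 (limma, adjusted p = 0.996). Fbn2, the only fibrillin named, had a mean of -0.00 ± 0.24 (adjusted p = 0.982), with mice on both sides of 0.

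The interstitial collagens that make up most of the lung's collagen showed no common shift from the pool. Col1a1 had a mean of -0.27 ± 0.44 (adjusted p = 0.229), Col1a2 of 0.01 ± 0.48 (0.964) and Col3a1 of -0.22 ± 0.68 (0.48). Of the 10 fibrillar collagen genes tested, 0 were called higher and 1 lower by limma, and their unadjusted p under 0.05 added only Col5a3. Col5a3, an alpha chain of collagen V, was highest among them at 1.11, -0.01, 0.92 and 0.24 in mice 1 to 4 (mean 0.56 ± 0.54, adjusted p = 0.0542), and passed without mouse 2 (mean 0.75, adjusted p = 0.0304) and with the mouse as a random block (0.0297, but 0.0567 with a dye term). Its family members Col5a1 and Col5a2 had means of -0.10 ± 0.21 and 0.21 ± 0.26. Without mouse 3, Col1a1 passed as lower (-0.46, adjusted p = 0.0409).

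The second comparison asked whether the mice differed from one another. An F test between the 4 mice, fitted with limma on single arrays, dye orientation being a covariate, sets differences between mice against the difference between the 2 arrays of a mouse. Since all mice share the same pool, the pool adds nothing to these differences. Of the 50 members, 6 differed at an adjusted p under 0.05, beside 2.78% of all 8645 genes tested. They were Itgb2 (adjusted p = 0.0278), Col6a1 (0.0341), Col1a1 (0.0341), Col1a2 (0.0353), Col14a1 (0.0444) and Lama4 (0.0444). Thus 4 of the 24 collagens and 5 of the 34 matrix genes passed.

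The count depended on the fit. Without the dye as covariate 1 member passed, Itgb2, beside 1.20% of all genes. Without mouse 4, which had the widest array, 9 members passed (Col1a1, Col1a2, Col3a1, Col4a2, Col6a1, Col11a2, Col14a1, Itga6 and Itgb2), beside 4.42% of all genes. Without mouse 1, 2 or 3 the count was 0, beside 0.728%, 0.0578% and 0.0693% of all genes.

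**Figure D3:**
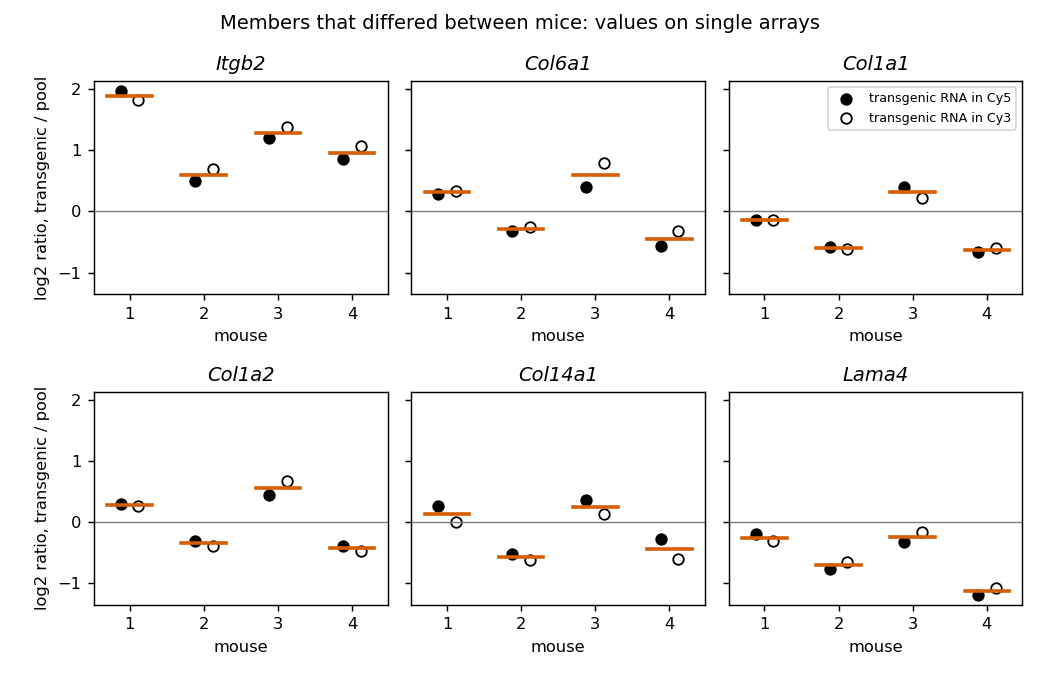
Log2 ratios on single arrays for the 6 members that differed between mice, with filled circles for arrays with the transgenic RNA in Cy5, open circles for Cy3 and an orange bar for the mean of a mouse. The 2 arrays of a mouse differ most for Col6a1 in mouse 3 (0.40 and 0.79), and the means of the 4 collagens are highest in mouse 3 and lowest in mouse 2 or mouse 4.

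The single arrays show how far the mice lay apart. Col1a2, the alpha 2 chain of collagen I, was at 0.29 and 0.26 on the Cy5 and Cy3 arrays of mouse 1 and at 0.43 and 0.67 on those of mouse 3. It was at -0.30 and -0.40 in mouse 2 and at -0.39 and -0.47 in mouse 4. Col1a2 is shown because it passed the test on these same arrays, so the values describe that result and add no support. In each of the 4 probes of Col1a2 the means of mice 1 and 3 were above those of mice 2 and 4. Col1a1, the alpha 1 chain, was at -0.14, -0.60, 0.31 and -0.63 in mice 1 to 4, with mouse 3 alone above 0. Its 2 probes had means of -0.01 and -0.52, with mouse 1 at 0.002 in the first and -0.284 in the second. Col6a1, a chain of the beaded filaments around cells, was at 0.31, -0.29, 0.60 and -0.45. Col14a1, a collagen that coats fibrils, was at 0.13, -0.57, 0.24 and -0.44.

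Several genes that did not pass this test had the same 2 highest mice, 1 and 3. Mouse 2 was lowest in Col3a1, as in Col14a1, which passed. Mouse 4 was lowest in Col6a2, Col18a1 and Fbln1, as in Col6a1, which passed. Col3a1, the collagen III chain, was at 0.01, -0.95, 0.61 and -0.57 in mice 1 to 4, the widest range of any member (1.56 log2 units, adjusted p between mice = 0.0561). Col6a2 was at 0.32, -0.07, 0.54 and -0.15, Col18a1 at -0.06, -0.60, 0.05 and -0.82 (against the pool, mean -0.36, adjusted p = 0.11, or 0.0407 with the mouse as a random block), and Fbln1 at 0.04, -0.49, 0.17 and -0.70. The random-block value of Col18a1 counts the 2 arrays of a mouse as largely independent. Those arrays lay close together in mouse 2 (-0.63 and -0.57) and mouse 3 (0.04 and 0.06), so it is no firm pass. Mice 1 and 3 were the 2 highest of the 4 in 20 of 34 matrix genes and in 6 of 13 integrin subunits, beside 30.9% of all named genes, where it was also the commonest pair. Col11a2, a cartilage-type fibrillar chain, ran the opposite way at -0.55, 0.19, -0.54 and 0.04. The median of the matrix genes was 0.02, -0.18, 0.10 and -0.05 in mice 1 to 4.

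Marker lists are given beside these values by mouse. Fibroblast markers had medians of -0.17, -0.39, -0.13 and -0.58 in mice 1 to 4, with 0 of 7 higher and 2 lower (Inmt, -1.57 ± 0.43; Dcn, -0.88 ± 0.25). Airway epithelial markers had medians of -0.47, 0.15, -0.40 and 0.54, with mice 2 and 4 the 2 highest in 4 of 6, beside 19.8% of all named genes. The other markers were the ones called higher, Krt5 and Krt15, and were lowest in mouse 2. Smooth muscle markers hardly varied, at -0.32, -0.20, -0.24 and -0.26, with 1 higher (Myocd, 0.72 ± 0.08) and 3 lower of 6 (Myh11, -0.63 ± 0.20; Lmod1, -0.37 ± 0.04). The part of these cell types in the differences between mice was not tested.

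Collagen IV, the network collagen of basement membranes, was also highest in mice 1 and 3. Col4a2 was at 0.80, -0.17, 0.94 and -0.03 in mice 1 to 4 (mean 0.39 ± 0.57, adjusted p = 0.164), and Col4a1 over 4 probes at 0.53, -0.12, 0.50 and 0.12 (mean 0.26 ± 0.31, adjusted p = 0.143). On Cy5 arrays alone Col4a2 passed as higher (mean 0.60, limma, adjusted p = 0.0416), while on Cy3 arrays alone its mean was 0.17 (0.603). Of the 4 probes of Col4a1, those at 0.60, -0.56, 0.87 and -0.51 and at 0.81, -0.08, 1.15 and 0.08 ran like Col4a2. The other probes, at 0.29, 0.35, 0.32 and 0.77 and at 0.42, -0.21, -0.33 and 0.16, did not. The first of these has a number between 8000 and 9000, and both had, on 4 of the 8 arrays, a value that at least 50 probes of the array share. In RefSeq GRCm38.p6 the genes start head to head on chromosome 8, on opposite strands. The first base is 11312826 for Col4a1 and 11312805 for Col4a2, so their annotated 5′ ends share 22 bases, both starts included. These bases are shown in capitals, within 30 bases of chr8:11312801-11312830 read on the plus strand, because the genes had the same 2 highest mice.
Col4a1 and Col4a2: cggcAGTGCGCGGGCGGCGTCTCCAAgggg

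The next 3 windows show the sequence just before the annotated start of collagens in which mice 1 and 3 were highest. Each has 120 bases, 5′ to 3′ on the strand of the gene, from RefSeq GRCm38.p6. Capitals mark TGACTCA, the consensus site of AP-1, and CCAAT, each searched on both strands. The windows are chr10:76726045-76726164 (minus strand) for Col6a1, chr6:4505498-4505617 (plus strand) for Col1a2 and chr1:45311418-45311537 (plus strand) for Col3a1.
Col6a1: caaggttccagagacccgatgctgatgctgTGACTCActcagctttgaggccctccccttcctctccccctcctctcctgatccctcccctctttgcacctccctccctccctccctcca
Col1a2: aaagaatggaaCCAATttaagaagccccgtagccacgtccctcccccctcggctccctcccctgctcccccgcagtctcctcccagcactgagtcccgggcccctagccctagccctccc
Col3a1: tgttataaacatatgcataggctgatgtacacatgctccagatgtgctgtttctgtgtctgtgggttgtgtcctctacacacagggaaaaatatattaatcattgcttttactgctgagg

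The table held promoter windows, from 250 bases before to 50 after a start, for 34 of the 51 members. TGACTCA stood in those of 2 genes, Col6a1 and Itga9, beside 5.2% of all 32851 windows, and CCAAT in those of 13, beside 37.4%. Neither gene with TGACTCA was called against the pool. A match here is a description of the letters and not of binding.

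**Figure D4:**
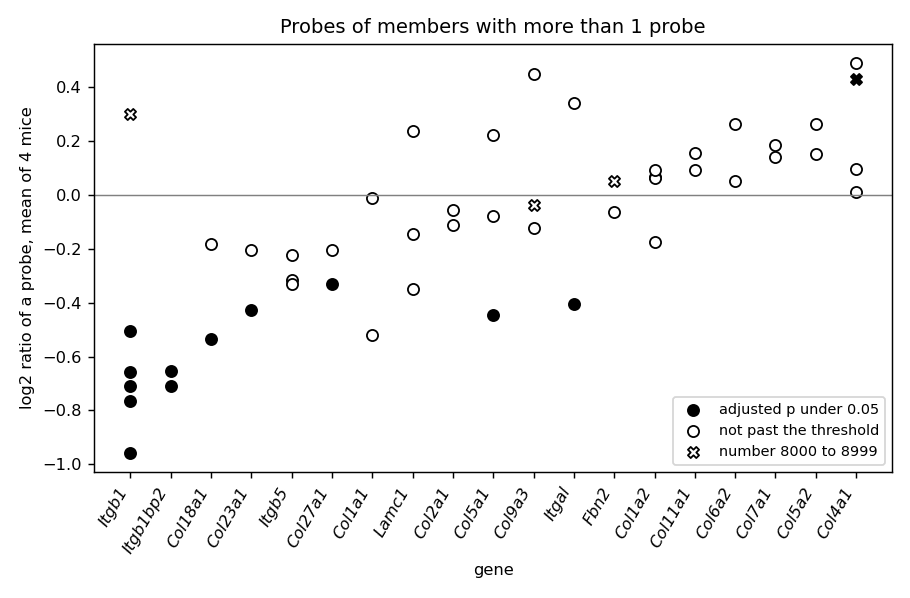
Mean log2 ratio over 4 mice of each probe (points) for the 19 members with more than 1 tested probe; filled points passed an adjusted p of 0.05 over all probes, and crosses have annotation numbers between 8000 and 9000. Itgb1 has 5 filled points below -0.50 and 1 cross above 0, and no member has filled points on both sides of 0.

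Probes of a gene gave a check on names and values. Of 81 member probes tested singly, 6 were higher and 16 lower, beside 11.1% higher and 14.6% lower (25.7% called) of all 20621 probes. Of the 19 members with more than 1 tested probe, 12 had all probes on one side of 0 and 7 did not, and 0 had probes called in opposite directions. The 7 were Col1a2, Col5a1, Col9a3, Fbn2, Itgal, Itgb1 and Lamc1. Probes of Col1a2, Itgb1bp2 and Itgb5 agreed in their spread over mice or in their means, while those of Col5a1 ranged from -0.44 (adjusted p = 0.0293) to 0.22. Of the 82 probes 10 had a value shared by at least 50 probes on 4 or more arrays, beside 21.9% of all probes. One of the 10, a probe of Col4a1, was called higher (0.43, adjusted p = 0.0229). The other 9, of Col4a1, Col5a1, Col5a2, Col7a1, Col9a3, Col11a1, Col26a1 and Itgb2l, had means between -0.12 and 0.27 and did not pass.

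The remaining collagens stayed close to 0. Col2a1, the main collagen of cartilage, had a mean of -0.08 ± 0.23, Col16a1 of 0.02 ± 0.17 and Col26a1 of -0.05 ± 0.12. Col9a2 (0.19 ± 0.29), Col7a1 of the anchoring fibrils (0.16 ± 0.14), Col11a1 (0.13 ± 0.15) and Col9a3 (0.10 ± 0.23) were slightly above 0, and none of the 7 passed.

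Genes that act on these proteins were counted beside the 31.9% called over all named genes. Of 25 measured genes of collagen synthesis, processing and cross-linking, 3 were higher and 5 lower (32% called, median -0.09). Pcolce2, an enhancer of procollagen processing, fell by 1.93 ± 0.54 (adjusted p = 0.00118), the collagen galactosyltransferase gene Colgalt2 by 0.84 ± 0.12 and Pcolce by 0.44 ± 0.05, while Bmp1, the protease they enhance, rose (0.37 ± 0.12). Of 11 elastic fibre and microfibril partners 1 was higher (Eln, 0.67 ± 0.55) and 2 lower (Ltbp4, -1.02 ± 0.26; Mfap2, -0.29 ± 0.13). Of 10 basement membrane partners 0 were higher and 4 lower, led by Npnt (-1.19 ± 0.40), which encodes a ligand of the alpha 8 beta 1 integrin, Sparcl1 (-0.86 ± 0.51) and Dst (-0.55 ± 0.16), which links integrins to filaments.

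Of 23 genes of integrin adaptors and signalling, 1 was higher (the tetraspanin gene Cd9, 0.60 ± 0.50) and 5 lower (26.1% called). The small GTPase gene Rap1b (-0.81 ± 0.47), the tetraspanin gene Cd81 (-0.76 ± 0.39) and Rasgrp2 (-0.74 ± 0.21), which activates Rap1 in platelets and leukocytes, led the falls. Of 17 ligand genes, 1 was higher (the E-cadherin gene Cdh1, 0.49 ± 0.22) and 3 lower (23.5% called), among them Icam2 (-0.99 ± 0.48), a counter-receptor of beta 2 integrins, and Vcam1 (-0.52 ± 0.25), a counter-receptor of alpha 4 integrins. Of 10 matrix metalloproteases 5 were higher and 1 lower, led by the collagenase gene Mmp13 (1.89 ± 1.66, adjusted p = 0.0345). Fat markers fell in 6 of 8, led by Adipoq (-2.03 ± 0.40), Cidec (-1.55 ± 0.57) and Fabp4 (-1.16 ± 0.58), and mesothelial markers rose in 3 of 4, led by Msln (1.31 ± 0.17) and Krt18 (0.70 ± 0.39).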

How the data were processed

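The deposited values are log2 ratios of the 2 channels, which the authors made for each probe on each array. How background, normalization and centring were handled is not given in the sources used here. RNeasy kits gave the total RNA, and Cy3 or Cy5 was attached indirectly, per the labels' protocols. The gap between the 2 commonest values of an array equalled the log2 of a ratio of whole numbers up to 10, such as 4 to 3 (0.415), to 3 decimals on 7 of 8 arrays and within 0.001 on the other, as ratios of whole-number intensities do on a log2 scale. Signal over background is unknown, and the number of mice limits the precision.

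Of the values, 498 beyond 10 in size were set to missing, and 706 were missing as deposited. The annotation gives a gene for 12771 probe numbers. An offset of 11 between these numbers and the table rows gave a Spearman correlation of 0.245 over 3504 pairs of probes of a gene, against at most 0.0592 at the other of 121 offsets. Numbers above 20237 were left unnamed, so 12296 probes have 1 gene name and 8498 none. Gene identifiers of all 12771 matched RefSeq (GRCm38.p6). Near-identical genes may cross-hybridise.

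A probe needed a value in each mouse (20621 of 20794). The 2 arrays of a mouse were averaged, then the probes of a gene, and limma (version 3.58.1, R 4.3.3) tested the 4 mouse means against 0 by lmFit with eBayes. The test was two-sided, with 3 degrees of freedom from the residuals and 4.27 from the prior, and p-values were adjusted by Benjamini-Hochberg over 8692 genes. Probes were also tested singly. The F test between mice used the 8 arrays with the dye as covariate (8645 genes). A dye effect, tested on the difference of the 2 arrays of a mouse, was called for 0 of 50 members and 0 of all genes by limma (10 and 2309 at an unadjusted p under 0.05). The fits were also run on simulated independent noise with added shifts. That noise held no error shared through the pool, so it cannot show whether calls against 1 pool are sound. Alternatives left out a mouse, a dye orientation, the Cy3 array of mouse 4 or stretches of names, kept the values beyond 10, centred arrays, took the median of probes, asked for all 8 arrays, used a robust variance model or took the mouse as a random block. That block used 1 consensus correlation over all genes, 0.114, or 0.357 with a dye term. Leaving out that Cy3 array, leaving out only the stretch 8000 to 9000 and leaving out mice in the F test were chosen after seeing the data. Tables and plots used Python 3.11.15 with scipy 1.17.1, matplotlib 3.10.9, pandas 2.3.3 and numpy 2.4.6. Members and lists were chosen with earlier results of these data known. Named genes were members past the threshold, chain partners, members that differed between mice, the 3 largest not past the threshold in each class, and up to 3 genes a list; other members are named to account for all.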

Additional observations from a re-analysis of the deposited data

Results flagged for a closer look

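Col11a1 stood at 0.06, 0.07, 0.02 and 0.35 in mice 1 to 4, so mouse 4 lay far from the other mice for the range of the group. Of its 2 probes, 1 had a value shared by at least 50 probes on 6 of 8 arrays. Chance alone marks about 1 in 20 groups in this way, and 1 of 50 members was marked.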

How the results depend on the processing

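The pool is 1 sample, signal over background is unknown, and 4 mice limit the precision. No paired analysis was possible because there is 1 group of mice against 1 pool. Of the 13 calls, 7 held under all 16 alternatives, 0 changed sign, and 16 of the 37 members not called changed sign under at least 1. Leaving out 1 mouse at a time gave 1555 to 2107 called genes of all named genes (fewer samples), 1 to 2 matrix genes higher, 2 to 6 lower and 0 to 9 members that differed between mice. Without mouse 1 there were 2 matrix genes lower, and without mouse 2 or mouse 4 there were 3. The matrix genes higher numbered 2 on Cy5 arrays alone, with the mouse as a random block and a dye term, on centred arrays and without the Cy3 array of mouse 4, and 3 with the mouse as a random block alone. On Cy5 arrays alone the 2 were Col4a2 and Lama1, and Fbln7 was not among them. Members that differed between mice numbered 1 without the dye covariate and 3 with the values beyond 10 kept. The cause was not tested.

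Members not called changed sign as follows. On Cy5 arrays alone the log2 ratio was -0.052 for Col6a1, -0.066 for Col9a3, -0.058 for Col9a2 and -0.030 for Col11a1. On Cy3 arrays alone it was 0.18 for Itgbl1, 0.068 for Col26a1, 0.026 for Col25a1, -0.084 for Col16a1, 0.058 for Fbn2 and 0.10 for Itgal. On centred arrays it was 0.0034 for Itgbl1 and 0.0099 for Fbn2. Col9a3 was at -0.12 without both stretches of names and at -0.011 without the Cy3 array of mouse 4. Over the sets without 1 mouse the values ran from -0.13 to 0.00033 for Itgb3bp, -0.043 to 0.020 for Itgbl1, -0.11 to 0.055 for Col25a1, -0.14 to 0.21 for Col6a1, -0.025 to 0.095 for Col16a1, -0.50 to 0.018 for Col3a1, -0.14 to 0.026 for Col2a1, -0.17 to 0.16 for Col1a2, -0.093 to 0.067 for Fbn2, -0.16 to 0.022 for Itga9, -0.032 to 0.17 for Itga2 and -0.086 to 0.024 for Itgal. The cause was not tested.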
